A study of Mus musculus with 18 samples.

Results

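Immediate early genes were followed in mouse kidney RNA through 10 members, Fos, Fosb, Jun, Junb, Jund, Egr1, Ier2, Ier3, Klf6 and Dusp1, chosen by symbol, and all 10 were among the 19545 genes of the deposited expression table. The samples were 18 kidneys from ICR mice aged 10 weeks, in 6 groups of 3. HS_AOS_FMT had a high fat diet, STZ (streptozotocin, a toxin of pancreatic beta cells) and an FMT, a faecal microbiota transplantation, labelled AOS at 10 mg/kg. HS_control_FMT had the same diet and STZ with an FMT labelled control. HS_AOS had diet, STZ and AOS at 10 mg/kg, HS had diet and STZ alone, AOS had AOS at 10 mg/kg alone, and control carries no treatment. The labels do not spell out AOS, do not describe the donors of the FMT and are silent on whether each sample of a group is another mouse. The p-values below therefore take in only the spread seen between these samples, which may be technical.

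Immediate early genes are transcribed within minutes of a stimulus, from factors already present in the cell, and most of their messages are short-lived. Fos and Jun proteins pair through leucine zippers to form AP-1, a transcription factor that acts on genes of growth, stress and matrix turnover. In kidney the family is known to rise after ischaemia and growth factors, and several members, such as Dusp1, act back on the kinases that induce them.

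Transcripts of other cell types differed between libraries, in part along the groups. All 11 markers of kidney segments and podocytes were above 0 in every library, from 2.16 FPKM for Nphs1 upwards. The sum of 8 adrenal markers was 226 FPKM in HS_AOS_FMT 2, 38.6 FPKM in HS_AOS_FMT 3, 324 FPKM in HS 3 and 504 FPKM in control 3, and at most 4.5 FPKM elsewhere. Control 3 had correlations across genes of 0.947 to 0.965 with the others, and its Kap, a proximal tubule transcript, was at 15798 FPKM where every other library had at least 66020. Summed over 4 germ cell markers, the 3 controls held 26.1 to 37.1 FPKM and no other library more than 0.47. The 5 erythroid markers summed to 3264 to 4084 FPKM in HS_AOS_FMT, 3007 to 7343 in HS_control_FMT and 3231 to 4678 in HS_AOS, against 7067 to 15525 in HS, and 0 of the 4 tested were called in these 3 comparisons with limma, with 1 at an unadjusted p under 0.05 in each of HS_AOS_FMT vs HS and HS_AOS vs HS. Their part in the members' differences from HS was not tested. FPKM is a level scaled by transcript length and library size. The table holds no read totals, and steps among its low values would stand for 8.77 to 12.5 M reads per library, if 1 step is 1 read. On that scale Fosb rested on fewer than 10 reads in 12 of 18 libraries and Fos in 2, while the other 8 members had 40 or more in every library. The longest transcript of each gene was used for these numbers, and a shorter one would give fewer reads.

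The promoters shown are those of Fos and Jun, the members called below, and of Dusp1, whose 6 libraries with a transplantation were the 6 highest of 18, each as the 250 bases before the start site. The sequences are RefSeq's for GRCm38.p6, on the strand of the gene, chr12:85473640-85473889 for Fos, chr4:95052223-95052472 on the minus strand for Jun and chr17:26508473-26508722 on the minus strand for Dusp1. Capitals mark TGACGTCA, the cyclic AMP response element, its variant TGACATCA, and TGACG, the first 5 bases of that element, on either strand.
Fos: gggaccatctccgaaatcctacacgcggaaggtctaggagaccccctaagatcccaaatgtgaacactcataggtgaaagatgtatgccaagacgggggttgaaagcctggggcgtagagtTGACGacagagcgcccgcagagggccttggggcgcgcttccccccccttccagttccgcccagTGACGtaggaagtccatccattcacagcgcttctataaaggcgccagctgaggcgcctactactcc
Jun: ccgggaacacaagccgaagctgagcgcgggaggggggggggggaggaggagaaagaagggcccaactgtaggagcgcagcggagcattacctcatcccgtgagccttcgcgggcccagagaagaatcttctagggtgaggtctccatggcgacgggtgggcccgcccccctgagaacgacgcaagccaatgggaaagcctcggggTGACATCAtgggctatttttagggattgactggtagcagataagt
Dusp1: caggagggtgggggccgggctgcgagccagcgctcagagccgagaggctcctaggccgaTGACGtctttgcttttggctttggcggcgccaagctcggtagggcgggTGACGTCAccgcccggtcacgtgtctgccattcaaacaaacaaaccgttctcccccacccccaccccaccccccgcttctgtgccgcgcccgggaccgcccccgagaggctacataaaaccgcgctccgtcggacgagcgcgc
RefSeq windows were at hand for 8 members, all but Egr1 and Ier2. TGACGTCA was in 1 of these, Dusp1, and in 1.55% of the 32851 mouse windows of this length. TGACATCA was in 2, Jun and Klf6, against 2.93% of all windows. TGACG, which overlaps TGACGTCA, was in 4, Fos, Fosb, Junb and Dusp1, against 17.8%. Neither TGANTCA, the AP-1 site, in 6.75% of all windows, nor a CArG box, the site of serum response factor, in 1.47%, was in these 8 windows. Bases farther upstream than 250 were not searched, so these genes may hold such sites outside the windows. The letters describe the windows and were not tied to the levels below.

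**Figure D1:**
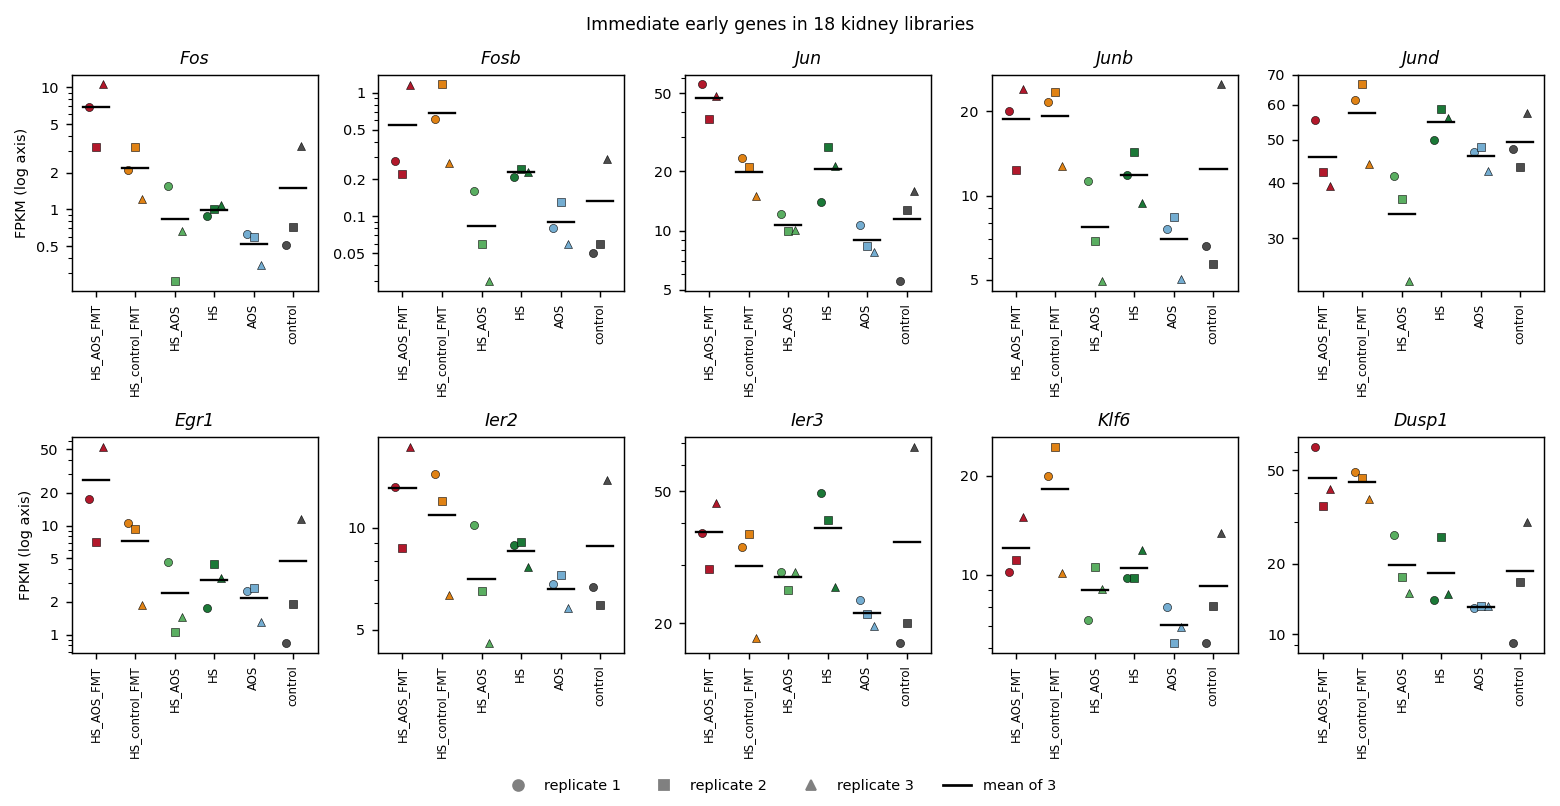
FPKM of each member on a log axis that differs between panels, with 3 libraries per group as points and their mean as a bar. Fos, Jun, Egr1 and Dusp1 have all 3 HS_AOS_FMT points above all 3 HS points, and control 3 is the highest control in all 10 panels.

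Fos encodes the founding partner of Jun in AP-1 (chromosome 12, 85473890 to 85477274, GRCm38). It was at 6.92, 3.22 and 10.6 FPKM in HS_AOS_FMT, at 2.11, 3.23 and 1.21 in HS_control_FMT, at 1.56, 0.26 and 0.67 in HS_AOS, at 0.88, 1 and 1.08 in HS, at 0.63, 0.59 and 0.35 in AOS and at 0.51, 0.72 and 3.29 in control. HS was the tightest group, and all 6 libraries with a transplantation lay above its 3. By group mean Fos ran from HS_AOS_FMT through HS_control_FMT, control, HS and HS_AOS to AOS, and each neighbouring pair of groups overlapped. Fosb, a close relative of Fos that also pairs with Jun proteins, was low throughout. It was at 0.28, 0.22 and 1.15 FPKM in HS_AOS_FMT, at 0.61, 1.17 and 0.27 in HS_control_FMT and never above 0.29 in the other 12 libraries. It reached 1 FPKM in 2 libraries, missed the minimum of 3 and was not tested, so 9 of the 10 members were.

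Jun encodes the main AP-1 partner of Fos (chromosome 4, 95049036 to 95052222). It was at 55.4, 37.1 and 48.5 FPKM in HS_AOS_FMT, 23.6, 21.1 and 15.1 in HS_control_FMT, 12.1, 9.91 and 10.1 in HS_AOS, 14, 26.8 and 21.4 in HS, 10.7, 8.33 and 7.78 in AOS, and 5.56, 12.8 and 16 in control. The 3 HS_AOS_FMT libraries were the 3 highest of the 18, and HS_AOS lay entirely below HS. Junb, a Jun protein that can restrain the activity of Jun, was at 20, 12.4 and 24.1 FPKM in HS_AOS_FMT, 21.6, 23.5 and 12.7 in HS_control_FMT, 11.3, 6.87 and 4.96 in HS_AOS, 11.9, 14.3 and 9.43 in HS, 7.58, 8.41 and 5.02 in AOS, and 6.63, 5.71 and 24.9 in control. Control 3 was the highest of the 18 for Junb. Jund, the Jun protein that resting cells express steadily, had the smallest ratio of highest to lowest library among the 10 members, 2.77, with levels from 24.1 FPKM in HS_AOS 3 to 66.6 in HS_control_FMT 2. Its levels were 41.4, 36.9 and 24.1 FPKM in HS_AOS, against 50, 58.6 and 56.1 in HS, which did not overlap, and HS_AOS had its lowest group mean.

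Egr1, a zinc finger factor induced through the MAP kinases and serum response factor, had the widest range, 63.1-fold between its highest and lowest library. It was at 17.7, 7.03 and 53 FPKM in HS_AOS_FMT, 10.5, 9.36 and 1.86 in HS_control_FMT, 4.69, 1.05 and 1.46 in HS_AOS, 1.77, 4.49 and 3.34 in HS, 2.5, 2.67 and 1.32 in AOS, and 0.84, 1.92 and 11.5 in control. One library, HS_AOS_FMT 3, stood well above all others. Klf6, a Krüppel-like zinc finger factor linked to kidney injury, was at 20, 24.5 and 10.1 FPKM in HS_control_FMT, its highest group, and between 6.2 and 15 FPKM in the other 15 libraries.

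Dusp1 encodes a phosphatase that switches off p38, JNK and ERK (chromosome 17, 26505591 to 26508472). It was at 63.2, 35.2 and 41.4 FPKM in HS_AOS_FMT, 49.3, 46.6 and 37.8 in HS_control_FMT, 26.5, 17.5 and 15 in HS_AOS, 14, 26 and 14.8 in HS, 13, 13.2 and 13.2 in AOS, and 9.17, 16.8 and 30.1 in control. The 6 libraries with a transplantation were the 6 highest of the 18. Ier2, a short nuclear protein of the same early wave, ranged from 4.57 FPKM in HS_AOS 3 to 17.3 in HS_AOS_FMT 3. Ier3, a stress-induced protein with roles in cell survival, ranged from 17.5 FPKM in control 1 to 68.1 in control 3, so that its extremes were both controls. Over all members, 46 of the 50 pairs of groups next to each other in the order of means overlapped.

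The first question was whether the transfer labelled AOS changed these genes in HS kidneys. Fos rose to 6.91 ± 3.69 FPKM in HS_AOS_FMT, against 0.987 ± 0.101 in HS (SD, n = 3 each), a 7-fold ratio of means and a log2 difference of 1.88 on the scale of log2(FPKM + 1), SE 0.40, adjusted p = 0.0421 with limma. That scale understates changes at low levels. Fos was the 1 member of 9 called, where 0.977% of all tested genes were called and 0.444% were called higher. At an unadjusted p under 0.05 there were 4 members, as there were 18.1% of all genes. Egr1 averaged 25.9 ± 24.1 FPKM in HS_AOS_FMT, against 3.2 ± 1.37 in HS (log2 2.31, SE 0.76, adjusted p = 0.135), a wide spread set by HS_AOS_FMT 3. Dusp1 was at 46.6 ± 14.7 FPKM in HS_AOS_FMT, against 18.3 ± 6.73 in HS (log2 1.31, SE 0.34, adjusted p = 0.0705). Jun reached 47 ± 9.25 FPKM in HS_AOS_FMT, against 20.7 ± 6.41 in HS (log2 1.17, SE 0.30, adjusted p = 0.0686). Egr1, Dusp1 and Jun did not pass.

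Fos, Jun, Egr1 and Dusp1 were above HS in all 3 HS_AOS_FMT libraries, 4 of the 9 tested members, while 15.8% of all tested genes lay wholly above. The median log2 difference of the 9 was 0.59, against 0.00 over all genes tested. The difference was negative for Jund (-0.27, SE 0.19), -0.02 for Ier3 (SE 0.40) and 0.18 for Klf6 (SE 0.28). In whole kidney, more cells of a type and more RNA per cell cannot be told apart. The call of Fos ended without any 1 of the 6 libraries, with log2 differences of 1.54 to 2.27 and adjusted p between 0.0752 and 0.183. It also ended with a pseudocount of 0.1 (adjusted p = 0.0608), with no filter (0.0622) and with HS_AOS_FMT and HS alone in the fit (0.0602), and with at least 5 FPKM in 3 samples required Fos was not tested. Adrenal transcripts were present in HS_AOS_FMT 2, the lowest of its group for Fos, in HS_AOS_FMT 3, the highest, and in HS 3. Without the 3 most adrenal-rich libraries the difference was 2.30 (adjusted p = 0.0596). With control 3 left out of the fit Fos, Jun and Dusp1 were called (adjusted p = 0.0119, 0.0306 and 0.0234), as were 5.04% of all genes in that fit.

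**Figure D2:**
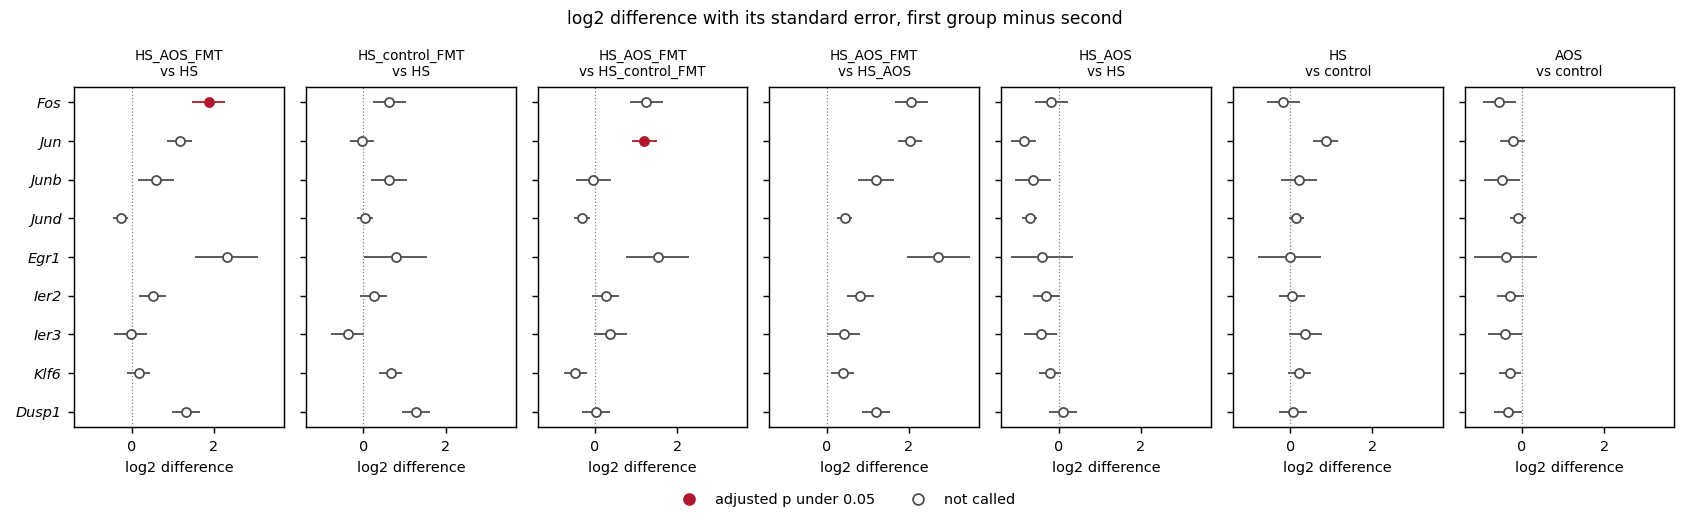
Log2 difference of log2(FPKM + 1), first group minus second, with its standard error, for the 9 tested members in 7 comparisons. Filled points passed an adjusted p of 0.05, Fos in HS_AOS_FMT vs HS and Jun in HS_AOS_FMT vs HS_control_FMT.

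The transfer labelled control was compared with the same HS libraries, so that both transfers share their reference. No member was called by limma in HS_control_FMT against HS, where 0.751% of all genes were, while 2 members, and 15.2% of all genes, had an unadjusted p under 0.05. Dusp1 was at 44.6 ± 6.01 FPKM in HS_control_FMT and 18.3 ± 6.73 in HS (log2 1.29, SE 0.34, adjusted p = 0.0997). Klf6 was at 18.2 ± 7.37 FPKM in HS_control_FMT and 10.5 ± 1.22 in HS (log2 0.66, adjusted p = 0.278). Of the 9 tested members 2, Fos and Dusp1, lay wholly above HS, against 6.53% of all genes, and untested Fosb did too. The median log2 difference was 0.63 over the members and -0.08 over all genes. Dusp1 was called once trends with GC content and length were removed (log2 1.40, adjusted p = 0.0307), with 1.45% of all genes, and when the fit omitted control 3 (log2 1.29, adjusted p = 0.0295), with 2.85%. That omission was chosen after seeing the data. In the other 13 of 15 alternatives Dusp1 was not called, with adjusted p up to 0.253. HS_control_FMT 3 was the lowest of its group for all 10 members.

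The difference between the transfers was tested directly. Jun was higher at 47 ± 9.25 FPKM in HS_AOS_FMT, against 19.9 ± 4.37 in HS_control_FMT (SD, n = 3 each), with a log2 difference of 1.20, SE 0.30 and adjusted p = 0.0393. It was the 1 member of 9 called, where 3.99% of all genes were and 2.90% were called higher, and the 1 whose groups did not overlap, as for 21.8% of genes that lay wholly above. Fos was at 6.91 ± 3.69 FPKM in HS_AOS_FMT and 2.18 ± 1.01 in HS_control_FMT (log2 1.25, adjusted p = 0.0959), and both Jun and Fos had an unadjusted p under 0.05, as did 19.8% of all genes. Egr1 was at 25.9 ± 24.1 FPKM in HS_AOS_FMT, against 7.25 ± 4.71 in HS_control_FMT (log2 1.52, adjusted p = 0.291). Dusp1 differed by 0.03 (SE 0.34) and Junb by -0.04 (SE 0.44) on the log2 scale. The call of Jun ended without any 1 of the 6 libraries, with log2 differences of 1.02 to 1.36 and adjusted p between 0.0678 and 0.137. It ended too with no filter (adjusted p = 0.0617) and without the 3 most adrenal-rich libraries (log2 1.36, adjusted p = 0.0518). In the latter fit Fos was called instead (log2 1.64, adjusted p = 0.0212), with 1.79% of all genes. HS_AOS_FMT 3, which also held adrenal transcripts, stayed in that fit.

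AOS stands in the labels both with and without FMT, and HS_AOS_FMT was set against HS_AOS. With limma no gene of 12385 passed in this comparison (0% of genes), and 5.18% of them had an unadjusted p under 0.05. All 9 tested members had a positive log2 difference, as 49.3% of all genes did, and 7 of the 9 had an unadjusted p under 0.05. Jun averaged 47 ± 9.25 FPKM in HS_AOS_FMT, against 10.7 ± 1.23 in HS_AOS, a 4.39-fold ratio of means (log2 2.02, SE 0.30, adjusted p = 0.0888). Fos was at 6.91 ± 3.69 FPKM in HS_AOS_FMT and 0.83 ± 0.665 FPKM in HS_AOS (log2 2.06, adjusted p = 0.263), and Egr1 at 25.9 ± 24.1 FPKM in HS_AOS_FMT and 2.4 ± 1.99 in HS_AOS (log2 2.71, adjusted p = 0.681). The groups did not overlap, with HS_AOS_FMT above, for 6 of the 9 tested members, Fos, Jun, Junb, Egr1, Ier3 and Dusp1, and for 5.18% of all genes. Jun was called in 4 of 15 alternatives. These were quantile normalization (adjusted p = 0.0205), GC content and length trends removed (0.0243), HS_AOS_FMT and HS_AOS alone in the fit (0.00578) and control 3 left out of it (0.0438). In the other 11 Jun was not called, with adjusted p up to 0.692. No member was called when any 1 replicate of the compared groups was left out. Fos was called in 1 of 14 alternatives, without the 3 most adrenal-rich libraries (log2 2.45, adjusted p = 0.0242). HS_AOS_FMT 3, at 38.6 FPKM over the adrenal markers, stayed in that fit, and no HS_AOS library was above 1.51 FPKM. Over all genes at most 3 were called in this comparison under any alternative.

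AOS without FMT was asked about by comparing HS_AOS with HS. No member was called by limma, where 2.30% of all genes were, while 2 members, both with lower means in HS_AOS, and 20.3% of all genes had an unadjusted p under 0.05. Jund averaged 34.1 ± 8.99 FPKM in HS_AOS, against 54.9 ± 4.44 in HS (log2 -0.70, SE 0.19, adjusted p = 0.0638). Jun was at 10.7 ± 1.23 FPKM in HS_AOS, against 20.7 ± 6.41 in HS (log2 -0.85, SE 0.30, adjusted p = 0.134). Both lay wholly below HS, 2 of 9 tested members, as did 11.1% of all genes, and untested Fosb did as well. Dusp1 was the 1 tested member with a positive log2 difference (0.12), as 50.9% of all genes had. Levels of a library moved with GC content, with rank correlations across genes of -0.592 to 0.110 in HS_AOS and of 0.208 to 0.332 in HS, and the Jund transcript has 67.1% GC against a median of 49.8%. With that trend and the trend in length removed, the difference of Jund was -0.33 (adjusted p = 0.224). It was called after quantile normalization (log2 -0.69, adjusted p = 0.0463), without HS_AOS 1 (log2 -0.86, adjusted p = 0.0261) and when the fit omitted control 3 (adjusted p = 0.0394), where 3.85%, 6.39% and 6.74% of all genes were called. In the other 12 of 15 alternatives Jund was not called, with adjusted p up to 0.231.

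Diet with STZ, and AOS alone, were each set against control. Jun averaged 20.7 ± 6.41 FPKM for HS, against 11.4 ± 5.34 for control (log2 0.87, SE 0.30, adjusted p = 0.623), the 1 member with an unadjusted p under 0.05 there, as 6.63% of all genes had. No member was called by limma in HS vs control, where 0.0646% of all genes were. In AOS vs control no member was called either, with the same 0.0646% of genes, and 0 members but 7.28% of genes had an unadjusted p under 0.05. All 9 tested members had negative log2 differences in AOS vs control, with a median of -0.33 against -0.09 over all genes, of which 26.6% were positive. Control 3 carried that direction. It was 5.35 times the mean of controls 1 and 2 for Fos, 8.35 times for Egr1, 4.04 times for Junb and 3.64 times for Ier3, and without it 7 of the 9 differences were positive with a median of 0.06. In HS vs control 7 of the 9 were positive with control 3 in, as were 50.5% of all genes, and the median was 0.15. Without control 3 all 9 were positive with a median of 0.50, and no member was called there either. For neither comparison was the share of all genes with positive differences worked out without control 3. Whether AOS acted differently with diet and STZ than without was tested as an interaction, and 0 members passed limma, where 0.0727% of all genes did. Jund, and 15.0% of all genes, had an unadjusted p under 0.05 in that test (log2 -0.60, SE 0.27, adjusted p = 0.315).

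Within groups the members tended to be high or low together. HS_AOS_FMT 3 was the highest of its group for 7 of 10 members and HS_AOS_FMT 2 the lowest for 8. HS_AOS 1 was the highest of its group for 9 members, HS 2 for 7 and control 3 for all 10. At the other end, AOS 3 and control 1 were each among the 3 lowest of 18 libraries for 7 members. Over the 18 libraries the 36 pairs of members without Jund had correlations of log2(FPKM + 1) between 0.48 and 0.96, with a median of 0.75, and Fos with Egr1 was the closest pair. The 9 pairs with Jund lay between 0.26 and 0.61. These describe libraries that share group, dissection and depth.

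**Figure D3:**
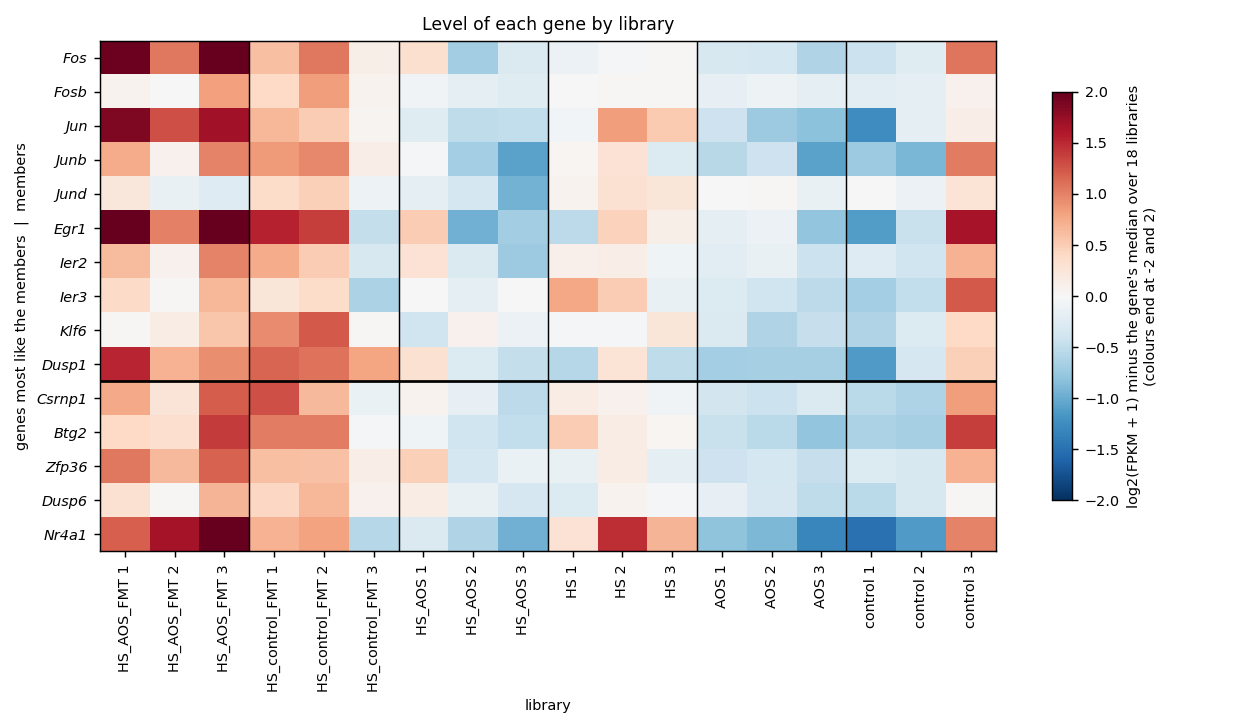
Level of the 10 members, and below the line of the 5 other genes most like their mean, as log2(FPKM + 1) minus the gene's median over 18 libraries. Red columns run through most members in HS_AOS_FMT 1 and 3, HS_control_FMT 1 and 2 and control 3, while Jund varies less than any other tested member.

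Among 10323 other genes with a mean of at least 2 FPKM, those most like the mean of the tested members over the 18 libraries were Csrnp1, Btg2, Zfp36, Dusp6 and Nr4a1, with Pearson correlations of 0.95, 0.93, 0.91, 0.89 and 0.89. Zfp36 was the gene most like Fos (0.95) and most like Egr1 (0.92), Nr4a1 most like Jun (0.91), Btg2 most like Junb (0.94) and Csrnp1 most like Ier2 (0.95). Zfp36 was at 55.4, 41.6 and 60.6 FPKM in HS_AOS_FMT, 40.2, 39.5 and 28.6 in HS_control_FMT, 36.6, 20.2 and 23.7 in HS_AOS, 23.5, 29.1 and 22.7 in HS, 19.2, 20.2 and 18.7 in AOS, and 21.4, 20.7 and 42.9 in control. Control 3 again stood among the libraries with a transplantation. Dusp1 was most like Per2 (0.90), Jund most like Gtpbp6 (0.91), Ier3 most like Sema3g (0.89) and Klf6 most like Morf4l2 (0.92). Per2 lay between 8.61 and 17.9 FPKM in the 6 libraries with a transplantation and in the remaining libraries between 1.62 and 7.53, apart from HS_AOS 1 at 13.6.

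The pathway around the members was followed in lists of other genes. Of 33 tested early response genes outside the 10, Maff, a small Maf protein, rose in HS_control_FMT to 10.3, 10.6 and 4.21 FPKM, against 2.11, 1.14 and 1.5 in HS (adjusted p = 0.0412). Sik1, a salt-inducible kinase, rose to 22.4, 22.6 and 24.7 FPKM in HS_control_FMT, against 9.65, 13.1 and 11.6 in HS (adjusted p = 0.0491). These were the 2 of the 33 called there, where 0.751% of all genes were. Maff was also the 1 of the 33 called between the transfers, where 3.99% of all genes were. It was lower in HS_AOS_FMT, at 2.28 FPKM on average, than in HS_control_FMT, at 8.39 (adjusted p = 0.0332). In that comparison 22 of the 33 had negative log2 differences, with a median of -0.17 against 0.07 over all genes. The median of the immediate early genes was 0.26. At an unadjusted p under 0.05 there were 6 lower and 1 higher, where 19.8% of all genes had one. In HS_AOS_FMT vs HS and HS_AOS vs HS 0 of the 33 passed limma, and at an unadjusted p under 0.05 there were 2 in HS_AOS_FMT vs HS, higher, and 5 in HS_AOS vs HS, lower, where 18.1% and 20.3% of all genes had one. In HS_AOS_FMT vs HS_AOS 0 passed either, while 12 of the 33 had an unadjusted p under 0.05, all higher, and 14 lay wholly above HS_AOS, against 5.18% of all genes for each count. Atf3, an AP-1 relative of that list, was at 27.7, 29.7 and 11.8 FPKM in HS_AOS_FMT 3, HS_control_FMT 2 and HS_control_FMT 1 and at 9.97 or less elsewhere, and was chosen after its values were seen.

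Of 15 tested phosphatases and feedback genes, Dusp16, a phosphatase of JNK and p38, rose to 10.2, 10.6 and 10.1 FPKM in HS_control_FMT, against 5.72, 6.86 and 6.58 in HS (adjusted p = 0.0205), as the 1 called. Of 11 AP-1 relatives, Crem, a repressor and activator at cyclic AMP elements, rose to 12.4, 14.6 and 10.6 FPKM in HS_control_FMT, against 6.27, 8.13 and 8.08 in HS (adjusted p = 0.0441), and it was lower in HS_AOS_FMT, at 6.74, 6.91 and 9.32 FPKM, than in HS_control_FMT (adjusted p = 0.0221). Of 29 upstream kinases and factors, Map2k2, which encodes the ERK kinase MEK2, fell to 56.3, 52.6 and 48.8 FPKM in HS_AOS, against 65.3, 79.4 and 78.7 in HS (adjusted p = 0.015), and to 58.2, 57.2 and 52.1 FPKM in HS_AOS_FMT (adjusted p = 0.041). Hras, a GTPase upstream of the MAP kinases, fell to 37.2 FPKM on average in HS_AOS, against 50.3 in HS (adjusted p = 0.0435). Mkl2, a coactivator of serum response factor, was at 2.9 FPKM on average in HS_AOS_FMT and 1.99 in HS_control_FMT (adjusted p = 0.0457). It was the 1 of the 29 called between the transfers, where 3.99% of all genes were called. The share of all genes called was 0.751% in HS_control_FMT vs HS, 2.30% in HS_AOS vs HS and 0.977% in HS_AOS_FMT vs HS. Each of these calls of Maff, Sik1, Dusp16, Crem, Map2k2, Hras and Mkl2 was lost without at least 1 of the 6 libraries compared. Sik1, Dusp16 and Mkl2 lost the call whichever library was left out, with adjusted p of 0.0529 or more. Without HS 2 or without HS 3 no gene was called in HS_AOS vs HS, and Hras and Map2k2 were not called there with trends in GC content and length removed. Of 14 tested AP-1 target genes 0 passed limma in any of the 8 comparisons. At most 3 had an unadjusted p under 0.05 in 1 of them, AOS vs control, where 7.28% of all genes had one.

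Stress genes were high beside the members in HS_control_FMT. The 15 heat shock and acute stress genes had a median log2 difference of 1.03 in HS_control_FMT vs HS, 14 of the 15 lay wholly above HS, against 6.53% of all genes, and Hmox1 and Hspa8 were called, against 0.751%. In HS_AOS_FMT vs HS their median was 0.07, and Hmox1 was called lower in HS_AOS_FMT, where 0.977% of all genes were called. Between the transfers all 15 had lower means in HS_AOS_FMT than in HS_control_FMT. There Hmox1, Hspe1, Hspb1 and Bag3 passed, as did 3.99% of all genes. In HS_AOS vs HS, where Jun and Jund had lower means, 13 of the 15 had negative log2 differences with a median of -0.63. There 5 lay wholly below HS, against 11.1% of all genes, and Hspb1, Hspe1 and Hmox1 were called lower, where 2.30% of genes were called. With trends in GC content and length removed, Hspb1, Hspe1 and Hmox1 were not called there, where 0.155% of all genes were. In HS vs control all 15 had positive log2 differences, with a median of 0.48. There 0 were called by limma, while 6 had an unadjusted p under 0.05, against 6.63% of all genes. In HS_AOS_FMT vs HS_AOS 13 of the 15 had positive log2 differences, with a median of 0.50. There 0 were called, and 6 lay wholly above HS_AOS, against 5.18% of all genes. Hmox1 kept its call without each of the 6 libraries in HS_control_FMT vs HS and between the transfers, and every other call of a stress gene was lost without at least 1 library. Hspa1a, an inducible heat shock protein chosen after its values were seen, was at 54.3, 34.4 and 93.5 FPKM in HS_AOS_FMT, 147, 142 and 83.8 in HS_control_FMT and 3.43, 68.7 and 48.6 in HS. Control 3, high for the members, was at 6.3 FPKM. The part of tissue stress and of the adrenal transcripts in the members' differences was not tested.

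**Figure D4:**
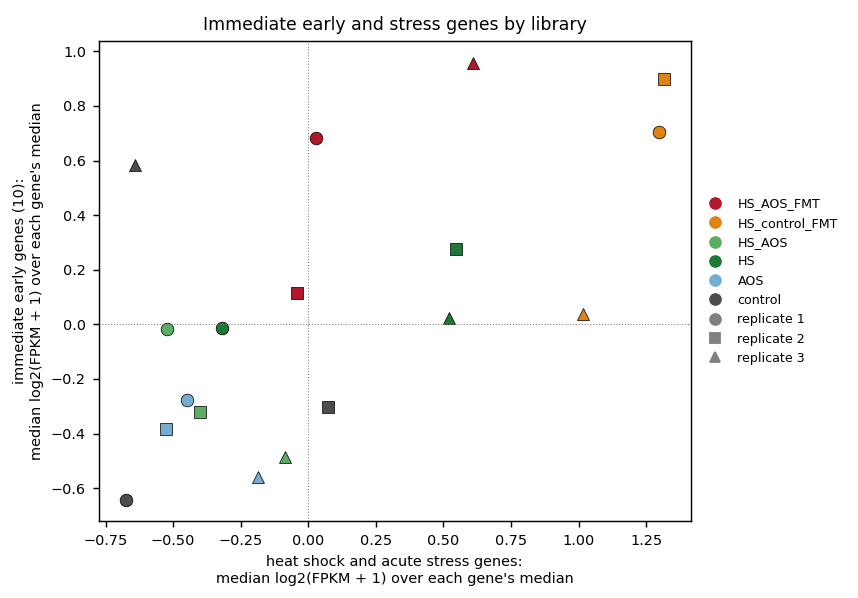
For each of 18 libraries, the median level of the 10 immediate early genes (vertical) and of the 15 heat shock and acute stress genes (horizontal), as log2(FPKM + 1) over each gene's median across libraries. The 3 HS_control_FMT libraries lie between 1.02 and 1.31 on the horizontal axis, and control 3 is at 0.58 on the vertical axis and -0.64 on the horizontal one.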

How the data were processed

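RNA sequencing covered 18 kidney samples. The deposited table gives FPKM per gene symbol as computed by the authors, with no read counts. Bowtie 0.12.2 and mm10 are listed per the submitters' processing notes, and the sources used here do not name the counting program, annotation, strandedness or filters. FPKM was read as the unit from the values, whose library totals varied by 0.93% (coefficient of variation) once multiplied by transcript length and by 4.29% without that. The length was that of the longest transcript per gene symbol, which may exceed the length behind the authors' FPKM. With it in kilobases the totals were 1410270 to 1466211.

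On log2(FPKM + 1), genes reaching 1 FPKM in 3 or more samples were kept (12385). A limma 3.58.1 fit in R 4.3.3, with trend and robust estimation and 12 residual degrees of freedom, gave each of 6 groups its own mean. Benjamini-Hochberg adjustment ran over all genes in a comparison, and 0.05 was the threshold. The fit was tested on simulated data. Members and gene lists were chosen with earlier results of these data known. Genes named beside the members were those called in each other list, at most 4 per comparison by p, and those most like a member or the members' mean by Pearson correlation. Alternatives were other pseudocounts, filters and normalization, a replicate block, removal of GC content and length trends (GENCODE M21 transcripts), fewer groups and libraries left out.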

Additional observations from a re-analysis of the deposited data

How the results depend on the processing

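Of the 9 tested members, 1 was called in HS_AOS_FMT vs HS. The count was 0 with a pseudocount of 0.1, with no filter, with at least 5 FPKM in 3 samples, with the replicate block, without the 3 adrenal-rich libraries or with the compared groups alone, 2 after quantile normalization (1.42% of all genes called), 3 with control 3 left out of the fit (5.04%, against 0.977% with it), and 0 to 0 without each replicate. In HS_AOS_FMT vs HS_control_FMT it was 1, and 0 with no filter or with the replicate block, 2 with control 3 left out (9.30% of all genes, against 3.99%), and 0 to 0 without each replicate. The block ended the calls of Fos (adjusted p = 0.069) and Jun (0.0668) and changed no other call of a member. Same-numbered samples of different groups had correlations of deviations from -0.36 to 0.31, above 0.1 in 14 of 45 pairs, so the numbers were not taken to pair samples. In HS_AOS vs HS the count was 0, and 1 after quantile normalization or with control 3 left out, and 0 to 1 without each replicate. In HS_control_FMT vs HS it was 0, and 1 with GC content and length trends removed or with control 3 left out, and 0 to 0 without each replicate. In HS_AOS_FMT vs HS_AOS it was 0, and 1 after quantile normalization, with those trends removed, without the adrenal-rich libraries, with the compared groups alone or with control 3 left out. It was 0 to 0 there without each replicate. In the other 3 comparisons it was 0 under every alternative run. The cause of these changes was not tested, except that Fos is not tested when 5 FPKM are required. Leaving control 3 out of the fit was chosen after seeing the data.

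Calls over all genes moved more widely, from 0 to 619 around 121 in HS_AOS_FMT vs HS, from 0 to 828 around 285 in HS_AOS vs HS, from 16 to 350 around 93 in HS_control_FMT vs HS, from 65 to 1143 around 494 in HS_AOS_FMT vs HS_control_FMT, from 0 to 255 around 8 in HS vs control, from 0 to 238 around 8 in AOS vs control, from 0 to 3 around 0 in HS_AOS_FMT vs HS_AOS and from 0 to 199 around 9 in the difference of the AOS effect. The 19 differences of single members with an unadjusted p under 0.05 kept their direction in all 286 values under alternatives. These refit the same libraries from which the 19 were picked, so the kept direction is no separate support. Of the 286 values, 15 gained the call and 20 lost it. The lost calls were all of the members called at first. Fos lost its call in 11 of 14 alternatives for HS_AOS_FMT vs HS. Jun lost its call in 9 of 15 for HS_AOS_FMT vs HS_control_FMT. Without counts, the precision of Fosb and of Fos below 1 FPKM is limited by few reads.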
